A study of Mus musculus with 4 samples.

Results

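Ly6 genes encode small surface proteins that immunologists and stem cell biologists use to name cells, among them the Ly6C antigen of inflammatory monocytes and Sca-1. The levels of 7 of them (Ly6c1, Ly6c2, Ly6i, Ly6a, Ly6d, Ly6e and Ly6g6c) were read here in the cells of mouse mammary tumours. The members were taken by symbol from the 31053 mouse genes in the deposited count tables. Counts were read within cell classes gated on other marker genes (monocytes, T cells, plasmacytoid dendritic cells and fibroblasts). The tumours came from HER2+ H605 mammary tumour cells, a cultured mouse line, of which 2000000 were placed in a mammary pad of each FVB/NJ host (6 to 8 weeks old), and tumours were collected at day 14. In all, 2 tumours grew in wild-type (WT) hosts and 2 in Il1a-/- hosts, which lack interleukin 1α, and each tumour gave 1 single-cell 3′ RNA library after enrichment for live cells. The tumours were collected as 2 WT and Il1a-/- pairs on different days, but which samples form a pair is not given in the sources used here, so the fits between hosts do not hold the day. The deletion is stated for the host, so the injected tumour cells were of the same line in both groups, and how the host allele was made is not given in the sources used here.

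The Ly6/uPAR family shares a compact fold held by disulfide bonds, the three-finger domain, and most members are tethered to the outer membrane by a glycolipid (GPI) anchor. Ly6c2 is the main source of the Ly6C antigen on blood monocytes and on memory and effector T cells, while Ly6c1 is known from endothelial and other stromal cells. Ly6a (Sca-1) marks blood stem cells, activated lymphocytes and mesenchymal progenitors. Ly6d marks B-lineage commitment and plasmacytoid dendritic cells, which are specialised producers of type I interferon. Ly6e is broadly expressed and known as a restriction factor for coronaviruses, Ly6i is a myeloid member close to Ly6c, and Ly6g6c is an epithelial member of the major histocompatibility region. Interferons are known inducers of Ly6a, Ly6c, Ly6e and Ly6i.

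The 4 libraries held 6705368 to 29001333 unique molecular identifiers (UMIs, each counting 1 captured RNA molecule), and 14076 cells were retained. The Il1a-/- replicate 1 library was the shallowest, with a median of 1349 UMIs a cell against 2893 to 4194 in the other 3. Between any pair of libraries 0 to 5 cell barcodes were shared. Gated cells numbered 153 and 238 (WT) and 73 and 217 (Il1a-/-) for monocytes. T cells numbered 1280 and 1309 in WT tumours and 1424 and 1782 in Il1a-/- tumours. Plasmacytoid dendritic cells (pDC) numbered 164 and 87 against 87 and 76, and fibroblasts 322 and 190 against 279 and 242. Each gated class carried its own marker list (pDC list 12524 to 13341 CPM, counts scaled to library size, in pDC), and the T list reached at most 9.97 CPM in the monocytes. Some lists did not separate classes: the NK list summed to 3766 to 5193 CPM in pDC and the monocyte list to 6004 to 13784 CPM in fibroblasts. Il1a itself had 60 and 59 UMIs in WT macrophages and 0 in both Il1a-/- samples, which allows up to 4.31 CPM there. A single Il1a UMI was found in Il1a-/- replicate 1, in phagocytes that met neither the monocyte nor the macrophage gate. Its fitted difference in macrophages missed the threshold (adjusted p = 0.123).

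In GRCm38, 6 of the 7 members lie on chromosome 15 within 349.915 kb: Ly6d (ENSMUSG00000034634, 74762056 to 74763620), Ly6e (ENSMUSG00000022587, 74955051 to 74959905), Ly6i (ENSMUSG00000022586, 74979534 to 74983430), Ly6a (ENSMUSG00000075602, 74994877 to 74998031), Ly6c1 (ENSMUSG00000079018, 75044018 to 75048830) and Ly6c2 (ENSMUSG00000022584, 75108158 to 75111970). Ly6e is read from the plus strand and the other 5 from the minus strand. Ly6g6c (ENSMUSG00000092586) lies on chromosome 17, 35065388 to 35070050, plus strand. Ly6c1 and Ly6c2 are near copies, with transcripts 97.6% identical over 822 aligned bases. Of the 451 windows of 50 bases in the last 500 bases of the Ly6c1 transcript, where 3′ reads fall, 90 (19.96%) also occur in Ly6c2, and a read inside such a window cannot be assigned to either gene.

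The 250 bases upstream of the start of Ly6c1 and Ly6c2 are printed because these near copies were found in different cells. They are RefSeq windows of GRCm38.p6, minus strand, chr15:75048838-75049087 and chr15:75111972-75112221. RefSeq windows were matched for 3 of the 7 members. Capitals mark exact runs of at least 15 bases that both windows hold.
Ly6c1: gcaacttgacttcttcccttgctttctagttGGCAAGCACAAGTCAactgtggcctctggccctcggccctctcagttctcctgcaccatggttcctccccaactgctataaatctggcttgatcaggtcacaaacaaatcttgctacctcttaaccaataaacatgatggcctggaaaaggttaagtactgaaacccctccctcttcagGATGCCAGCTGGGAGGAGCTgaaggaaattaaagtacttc
Ly6c2: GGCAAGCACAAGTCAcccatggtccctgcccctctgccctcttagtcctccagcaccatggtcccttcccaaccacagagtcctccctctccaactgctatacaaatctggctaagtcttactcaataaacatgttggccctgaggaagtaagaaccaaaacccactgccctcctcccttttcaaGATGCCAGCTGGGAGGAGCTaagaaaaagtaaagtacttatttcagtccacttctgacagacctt
Of 216 aligned bases, 164 (75.9%) were identical, and the shared runs covered 35 bases. Searched on both strands, the motif TTCNNNGAA (in 7.02% of 32851 RefSeq windows of the same length) and a core of the interferon-stimulated response element (in 2.98%) were in neither window. The letters TATAAA, in 12.4% of windows, occurred in the Ly6c1 window and not in the Ly6c2 window. These counts describe letters in these windows and nothing about a factor.

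Across all retained cells the members differed widely in abundance. Ly6e had 45876 UMIs and was seen in 68.2% of cells, Ly6a 28974 UMIs in 34.1%, Ly6c2 11580 in 16.3% and Ly6c1 7592 in 6.93%. Ly6d had 6108 UMIs in 3.25% of cells, Ly6i 647 in 1.85% and Ly6g6c 10 UMIs in 10 cells. Ly6g6c was therefore at or near 0 in every class and was tested in none, its highest class being WT tumour epithelium with 2 and 4 UMIs. The other 6 members were tested between classes. Each class was set against the mean of the other 3 within the same tumours, with edgeR's quasi-likelihood test adjusted over 10047 genes. Of 24 such member terms 18 passed an adjusted p of 0.05, where 43.3% of all genes did for monocytes, 55% for T cells, 42.4% for pDC and 63.2% for fibroblasts, so a call between classes is common among all genes.

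**Figure D1:**
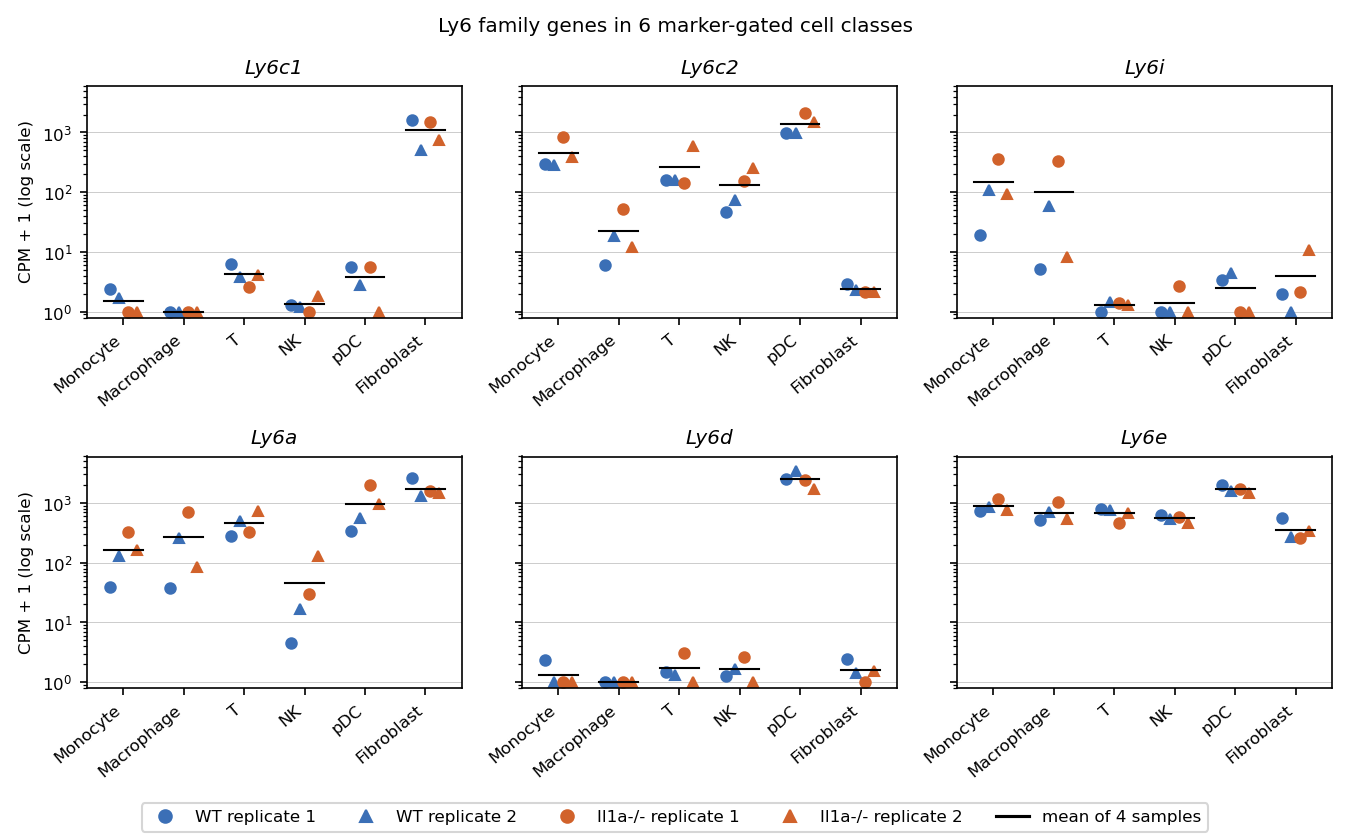
Level of 6 Ly6 members in each library (CPM + 1, log scale) for 6 gated classes, with WT hosts in blue, Il1a-/- hosts in orange, circles for replicate 1, triangles for replicate 2 and bars for the mean of 4 libraries. Ly6c1 stands near 1083 CPM in fibroblasts and under 10 CPM elsewhere, and Ly6d near 2505 CPM in pDC and under 10 CPM elsewhere.

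Ly6c1 was a fibroblast gene in these tumours. Its level in fibroblasts was 1587 and 514 CPM in the WT samples and 1490.3 and 740 CPM in the Il1a-/- samples, and 92.8% of all its UMIs lay in gated fibroblasts. The groups overlapped, and in both of them replicate 1 was the higher sample. The next class, T cells, had 3.23 ± 1.55 CPM (SD, n = 4), which overlapped pDC at 2.79 ± 2.32. The pDC in turn overlapped monocytes at 0.524 ± 0.664 and NK cells at 0.339 ± 0.358, both of which lay below every T cell sample. Macrophages had 0 UMIs, which allows up to 0.9 CPM in WT and 4.31 CPM in Il1a-/- samples. Fibroblasts exceeded the mean of the other 3 classes by 9.22 on the log2 scale (SE 0.21, adjusted p = 1.86e-17). Endothelial cells, a known site of Ly6c1, were too few for a test. They had 574 and 400.1 CPM in WT samples (15 and 4 cells with 40071 and 7499 UMIs of all genes). In Il1a-/- replicate 2 they had 580.4 CPM (5 cells with 29289 UMIs), with no such cell in Il1a-/- replicate 1.

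Ly6c2 had the reverse distribution. In pDC it was at 998 and 985 CPM in WT and 2097 and 1523 CPM in Il1a-/- samples, in monocytes at 293, 286, 848 and 382 CPM in the same order, and in fibroblasts at 1.13 to 1.956 CPM. By the mean of 4 samples the order was pDC (1401 ± 528 CPM), monocytes (452 ± 267), T cells (264 ± 220.0), NK cells (132 ± 93.9), macrophages (21.1 ± 20.4) and fibroblasts (1.38 ± 0.390). The pDC lay above every monocyte sample and the macrophages above every fibroblast sample, whereas the neighbours between them overlapped. Against the mean of the other 3 classes, pDC were higher by 4.50 (SE 0.26, adjusted p = 7.9e-11), monocytes by 2.37 (SE 0.29, adjusted p = 2.49e-06) and T cells by 1.30 (SE 0.30, adjusted p = 0.0013) on the log2 scale. The T cell term was 0.15 (adjusted p = 0.729) when the gate was read from cells thinned to 500 UMIs.

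The near copies were counted in different cell classes. Of the UMIs assigned to either, fibroblasts had 7043 for Ly6c1 and 10 for Ly6c2, so that 99.9% were Ly6c1 (exact 95% interval 99.7 to 99.9%). Monocytes had 2 against 1070, pDC 6 against 2425 and T cells 67 against 6117, and the share of Ly6c1 in T cells was 1.08% (0.841 to 1.37%). Of these low levels, RNA free in the suspension, estimated from genes foreign to each class, could supply 11.2 to 43.2% for Ly6c1 in T cells and 17.2 to 87.1% for Ly6c2 in fibroblasts. CD4 T cells had the most even split, with 20 UMIs of Ly6c1 and 90 of Ly6c2 (18.2% Ly6c1, 11.5 to 26.7%). These intervals and all others on UMIs or cells cover counting error only.

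**Figure D2:**
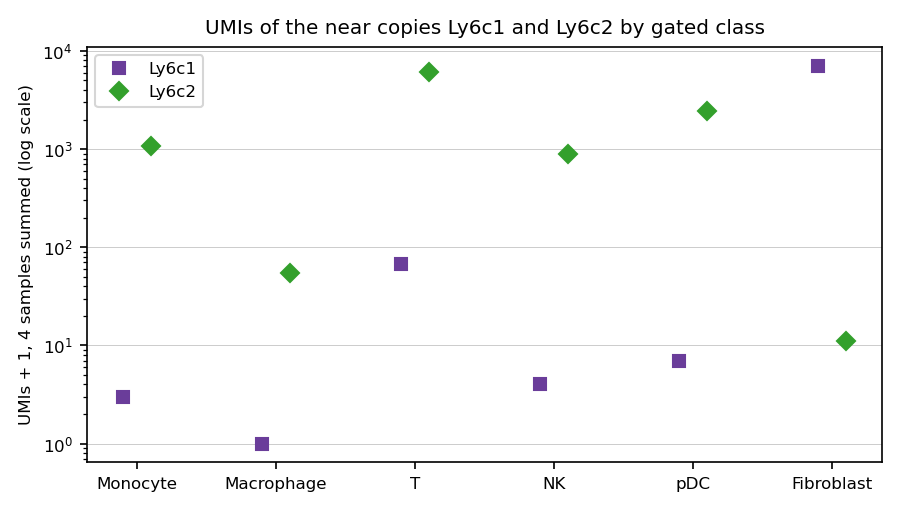
UMIs + 1 of Ly6c1 (squares) and Ly6c2 (diamonds), summed over the 4 libraries, in 6 gated classes on a log axis. Ly6c1 exceeds Ly6c2 in fibroblasts (7043 against 10) and lies far below it in the other 5 classes.

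Ly6i was a phagocyte gene whose level varied widely between tumours. Monocytes had 18.0 and 109.7 CPM in WT and 363 and 91.7 CPM in Il1a-/- samples, and macrophages 4.19, 57.0, 338 and 7.32 CPM. In both classes Il1a-/- replicate 1 was the highest, and the host groups overlapped. Fibroblasts (2.93 ± 4.47 CPM), pDC (1.47 ± 1.76), NK cells (0.422 ± 0.845) and T cells (0.288 ± 0.203) overlapped one another near 0. Monocytes exceeded the mean of the other 3 tested classes by 6.26 on the log2 scale (SE 0.44, adjusted p = 9.65e-10), and 46.2% of the Ly6i UMIs lay in monocytes and 25.3% in macrophages.

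Ly6a was highest in fibroblasts and spread over nearly every class. Fibroblasts had 2569.6 and 1326 CPM in WT and 1603 and 1472 CPM in Il1a-/- samples (1743 ± 563 over 4), which overlapped pDC (960.0 ± 720.3). Then came T cells (464 ± 206), macrophages (269 ± 304), monocytes (164 ± 117) and NK cells (44.4 ± 57.8), each of which overlapped its neighbour. Fibroblasts were above the mean of the other classes by 2.56 (SE 0.32, adjusted p = 1.13e-06), and monocytes had a log2 difference of -2.74 (SE 0.42, adjusted p = 3.06e-05). By UMIs, 42.5% of Ly6a lay in fibroblasts and 35.9% in T cells.

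Ly6d marked pDC, and B-lineage cells. In pDC it was at 2493 and 3405 CPM in WT and 2383 and 1739.7 CPM in Il1a-/- samples, whereas monocytes, macrophages, T cells, NK cells and fibroblasts stayed under 10 CPM in every sample. Both WT samples were above both Il1a-/- samples, but 45.6% of pDC genes had groups without overlap. The host difference was not called (edgeR, adjusted p = 0.318). The pDC exceeded the mean of the other 3 classes by 12.03 on the log2 scale (SE 0.27, adjusted p = 1.08e-16), a fitted value that depends on the prior count because the other classes had 1 to 9 UMIs in all. The B and plasma cell gate, too small for a test, had 1033, 2085, 2531 and 354 CPM.

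Ly6e was present in all classes. The pDC led with 1994 and 1598 CPM in WT and 1694 and 1462 CPM in Il1a-/- samples, above every sample of the other 5 plotted classes. Monocytes (877 ± 187 CPM), macrophages (692 ± 236), T cells (671 ± 145), NK cells (551 ± 72.6) and fibroblasts (353 ± 139) followed, each overlapping the next. Against the mean of the other 3, pDC were higher by 1.36 (SE 0.15, adjusted p = 8.24e-07), and fibroblasts had a log2 difference of -1.30 (SE 0.18, adjusted p = 3.22e-06).

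Within T cells, Ly6c2 and Ly6a sorted in opposite directions between the CD8 subset (cytotoxic cells, gated by Cd8a or Cd8b1 and no Cd4) and the CD4 subset (helper and regulatory cells). Ly6c2 was at 311, 299, 116 and 780 CPM in CD8 T cells and at 13.6, 10.9, 88.0 and 41.3 CPM in CD4 T cells (WT replicates 1 and 2, then Il1a-/- replicates 1 and 2). CD8 cells were higher in all 4 tumours, by 4.0 on the log2 scale (SE 0.47, adjusted p = 2.18e-04; 6.4% of 8107 genes passed). Ly6a was at 47.0, 69.6, 244 and 634 CPM in CD8 and at 470, 920.5, 842 and 1203 CPM in CD4 T cells, a log2 difference of -2.26 (SE 0.37, adjusted p = 0.00242), lower in CD8 cells of all 4 tumours. The call on Ly6a rested on comparing subsets within each tumour (-1.69, adjusted p = 0.246 without the tumour in the model). Ly6e differed by -0.50 (SE 0.15, adjusted p = 0.0773) and passed without Il1a-/- replicate 2 (-0.62, adjusted p = 0.031). Among CD4 cells thinned to 1000 UMIs, Ly6e was seen in 68.2 and 71.6% of WT cells with Foxp3, the regulatory T cell factor, and in 49.8 and 46.5% of those without it. In Il1a-/- tumours the shares were 80% of 5 cells and 69.6% of 23 cells with Foxp3, against 41.0 and 43.1% without.

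Within fibroblasts, Ly6c1 and Ly6a were higher in adventitial cells (with Pi16 or Dpp4, markers of a progenitor-like stromal state) than in the rest. Ly6c1 was at 1746, 720, 1567 and 894 CPM in the adventitial cells and at 562, 108, 800 and 452 CPM in the other fibroblasts. It was higher in all 4 tumours, by 1.67 on the log2 scale (SE 0.24, adjusted p = 0.00114; 4.34% of 7261 genes passed). Ly6a was higher by 1.06 (SE 0.18, adjusted p = 0.00332) and again in all 4 tumours, while Ly6e differed by 0.30 (SE 0.17, adjusted p = 0.455). Neither gene passed when the tumour was left out of the model (adjusted p = 0.436 and 0.39). Cell by cell at 1000 UMIs, Ly6a was seen in 79.9 to 90.8% of the fibroblasts with a Ly6c1 UMI and in 50.8 to 68.4% of those without. The part of capture depth in this was not tested.

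Monocytes and macrophages were split by the share of C1q transcripts in a cell, and monocytes also needed 2 monocyte markers. The largest difference between them was that of Ly6c2. Its level in macrophages was 5.03 and 17.8 CPM in WT and 50.7 and 10.98 CPM in Il1a-/- samples, below the monocytes of every tumour. Monocytes were higher by 4.56 on the log2 scale (SE 0.24, adjusted p = 4.57e-09; 16% of 6945 genes passed). Ly6i was higher in monocytes by 1.14 (SE 0.32, adjusted p = 0.0215), a call lost without WT replicate 2 (adjusted p = 0.0718). Ly6a (-0.36, adjusted p = 0.424; -0.81 and called without Il1a-/- replicate 2) and Ly6e (0.35, adjusted p = 0.0703) were not called.

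The comparison of Il1a-/- with WT hosts asks which Ly6 genes follow loss of host interleukin 1α, and in which cells. In the 4 classes of the gating rule, 2 of 4 tested members passed in pDC, where 1.97% of all genes did. None passed in monocytes (4 tested, 0.371% of all genes called), T cells (4 tested, 3.08%) or fibroblasts (3 tested, 0%). Host tests were added afterwards in NK cells, macrophages and the T cell and fibroblast subsets. Of 3 members tested in each, Ly6a was higher in Il1a-/- CD8 T cells, Ly6c2 in CD4 T cells and both in NK cells. No member passed in macrophages (4 tested) or in adventitial or other fibroblasts (3 tested in each), where 0 genes passed. Of all genes, 2.34% passed in CD8 T, 3.85% in CD4 T and 11.6% in NK cells. Ly6e was called between hosts in no class tested.

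**Figure D3:**
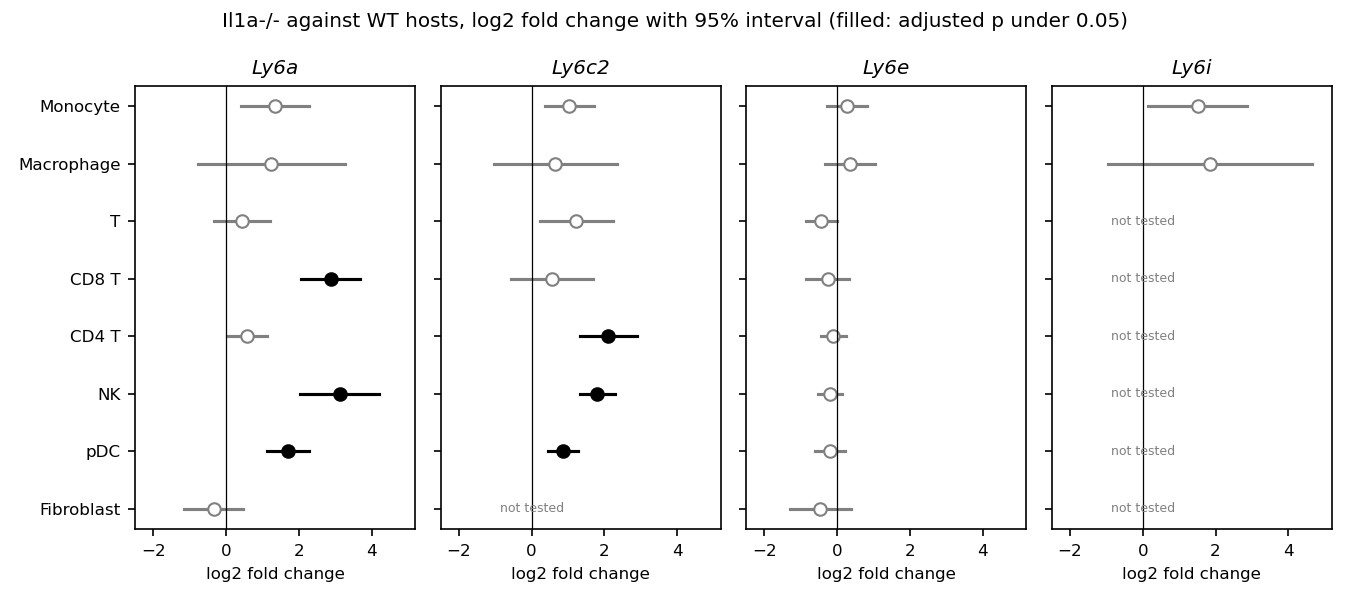
Log2 fold change (Il1a-/- over WT hosts) of Ly6a, Ly6c2, Ly6e and Ly6i in 8 gated classes or subsets. Filled points have an adjusted p under 0.05. The 95% intervals use the fitted standard errors with a normal approximation, which is too narrow for 2 samples a group. They can leave out 0 where the edgeR test does not reject, as for Ly6i in monocytes (0.15 to 2.87, unadjusted p = 0.0511). Ly6a is filled in CD8 T, NK and pDC, and Ly6c2 in CD4 T, NK and pDC.

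In pDC, Ly6a and Ly6c2 rose in Il1a-/- hosts. Ly6a was at 336 and 565 CPM in WT and 1966 and 973 CPM in Il1a-/- samples, and the groups did not overlap. The log2 difference was 1.70 (SE 0.30, adjusted p = 0.0064), where 1.97% of 5628 genes passed and 45.6% had groups without overlap. It was lost without Il1a-/- replicate 1 (1.12, adjusted p = 0.596), the shallowest library and the highest value, and with DESeq2 (1.71, adjusted p = 0.145). Ly6c2, at 998 and 985 CPM against 2097 and 1523 CPM, differed by 0.86 (SE 0.21, adjusted p = 0.0477) and kept its call in 7 of 14 other settings, being lost without Il1a-/- replicate 1 and without either WT sample (0.62, 0.86 and 0.85, adjusted p = 0.596, 0.144 and 0.142). Ly6d had a log2 difference of -0.52 (SE 0.24, adjusted p = 0.318) and Ly6e of -0.19 (SE 0.21, adjusted p = 0.766). Beside these values, the T cell list summed to 44.8 and 39.8 CPM in WT pDC and to 108 and 140.0 CPM in Il1a-/- pDC, against 5217 to 6139 CPM in T cells, and its part in the result was not tested.

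The share of pDC with a UMI, read at 1000 UMIs a cell, moved the same way for Ly6a. It was 15.7 and 36.9% in WT and 68.2 and 50% in Il1a-/- samples, without overlap, and without thinning 41.5, 65.5, 86.2 and 81.6%. These shares rest on the same cells and counts as the levels. How many of all genes separate the hosts by share was not computed. For Ly6c2 the shares were 50.3 and 52.4% against 75.3 and 59.5%, and for Ly6d 68.6 and 72.6% against 69.4 and 59.5%. With 2 samples a group the exact two-sided permutation test cannot go below p = 0.33, which is what Ly6a gave.

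**Figure D4:**
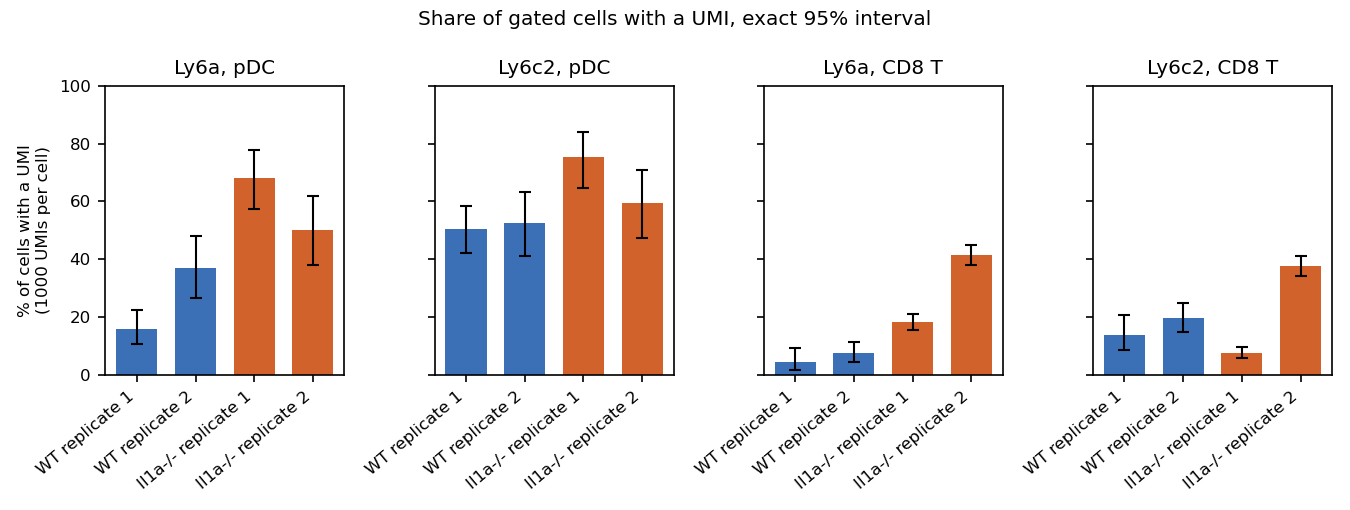
Share of pDC and CD8 T cells with a UMI of Ly6a or Ly6c2 in each library after thinning to 1000 UMIs a cell, with exact 95% binomial intervals (WT blue, Il1a-/- orange). The Ly6a bars of the Il1a-/- libraries stand above those of the WT libraries in both cell types, and the Ly6c2 bars of CD8 T cells run from 7.39 to 37.5% within the Il1a-/- group.

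The whole T cell gate showed no member past the threshold, where 3.08% of 10511 genes passed and 53.2% had groups without overlap. Ly6c2 was at 160.1 and 157 CPM in WT and at 144 and 593 CPM in Il1a-/- samples, so that only Il1a-/- replicate 2 stood apart. Its log2 difference was 1.23 (SE 0.52, adjusted p = 0.227). Leaving out that library gave -0.15. Leaving out the other Il1a-/- library gave 1.91 (adjusted p = 1.11e-06). Ly6a (0.43, SE 0.39, adjusted p = 0.562) had overlapping groups too, at 283, 508, 328 and 736 CPM, and passed without Il1a-/- replicate 1 (0.90, adjusted p = 0.0393). Ly6e (-0.44, SE 0.22, adjusted p = 0.296) was at 790 and 755 against 466 and 673 CPM, and Ly6c1 differed by -0.60 (adjusted p = 0.523). The makeup of the T gate moved with the host: CD8 cells were 10.9 and 19.6% of T cells in WT and 55.8 and 44.8% in Il1a-/- tumours, and CD4 cells 27.1 and 30.9% against 8.22 and 16.9%.

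Within CD8 T cells Ly6a rose, from 47.0 and 69.6 CPM in WT to 244 and 634 CPM in Il1a-/- samples. The groups did not overlap, which held for 53.2% of 10511 genes in the whole T gate (the share within CD8 T cells was not computed). The log2 difference was 2.88 (SE 0.41, adjusted p = 0.00462), where 2.34% of 8492 genes passed. The call was lost without WT replicate 1 (2.66, adjusted p = 0.127) or WT replicate 2 (3.23, adjusted p = 0.0974). At 1000 UMIs a cell, 4.35 and 7.42% of WT and 18.1 and 41.5% of Il1a-/- CD8 T cells had a Ly6a UMI. Ly6c2 did not separate the hosts in CD8 T cells (0.56, SE 0.58, adjusted p = 0.709): the Il1a-/- samples lay on either side of the WT samples, at 116 and 780 against 311 and 299 CPM. Its sign depended on which Il1a-/- library was kept: -1.39 with replicate 1 alone (adjusted p = 0.00163) and 1.38 with replicate 2 alone (adjusted p = 0.00321).

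In CD4 T cells the member that rose was Ly6c2, from a low base. It was at 13.6 and 10.9 CPM in WT and 88.0 and 41.3 CPM in Il1a-/- samples, on 18, 24, 14 and 34 UMIs. The log2 difference was 2.11 (SE 0.40, adjusted p = 0.016; 3.85% of 7841 genes passed), and it passed in all 6 other settings tried. Free RNA was estimated at 5.13 and 7.003% of the WT level. Ly6a was higher by 0.57 (SE 0.29, adjusted p = 0.287) with overlapping groups, and passed without WT replicate 2 (1.13, adjusted p = 0.00134). By edgeR the host effect on Ly6a was larger in CD8 than in CD4 cells by 2.33 on the log2 scale (SE 0.24, adjusted p = 1.44e-09). Of 8863 genes, 3.6% passed. The fit holds 2 tumours a group and borrows its spread from other genes. Its p-value therefore does not measure the spread of Ly6a between tumours alone. With each library left out in turn the difference ran from 1.90 to 2.68. For Ly6c2 this difference was -1.27 (SE 0.50, adjusted p = 0.171), called only without Il1a-/- replicate 2 (-4.16, adjusted p = 1.34e-09).

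In NK cells, innate cytotoxic lymphocytes with little Ly6a, Ly6a and Ly6c2 both rose. Ly6a was at 3.52 and 15.5 CPM in WT and 28.7 and 129.7 CPM in Il1a-/- samples, a log2 difference of 3.12 (SE 0.55, adjusted p = 0.0043). Free RNA was estimated at 50.3 and 12.3% of the WT level and 15.7% of that in Il1a-/- replicate 1, and with it subtracted the difference was 3.36 (adjusted p = 0.0036). Ly6c2 was at 44.8 and 74.2 against 155 and 254 CPM, a difference of 1.81 (SE 0.25, adjusted p = 0.00118). Both genes passed in all 6 other settings, and Ly6a was at its smallest without Il1a-/- replicate 2 (1.51, adjusted p = 0.0326). Calls were common in this class, since 11.6% of 9249 genes passed. The hosts also differed in which NK cells they held: 1 NK cluster had 404 and 468 WT cells against 37 and 3 Il1a-/- cells. The monocyte list moved with the host in NK cells (631 and 572 against 780.2 and 875 CPM), as did the macrophage list (133 and 113 against 183 and 169 CPM). The CD8 T list stood apart only in Il1a-/- replicate 1 (2.04 and 0.871 against 29.1 and 2.50 CPM). The part of these in the Ly6 values was not tested. Ly6e was not called (-0.19, SE 0.17, adjusted p = 0.482). At 1000 UMIs the Ly6a share was 0.233 and 1.21% of WT and 2.32 and 5.39% of Il1a-/- NK cells.

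In monocytes all 4 tested members had positive differences and none passed, where 0.371% of 7012 genes did. Ly6c2 (1.04, SE 0.34, adjusted p = 0.25) was at 293 and 286 CPM in WT and 848 and 382 CPM in Il1a-/- samples, and Ly6a (1.35, SE 0.48, adjusted p = 0.286) at 38.7, 131, 321 and 165 CPM. For both, the groups did not overlap, as for 42.9% of genes. Ly6i (1.51, SE 0.69, adjusted p = 0.44) and Ly6e (0.26, SE 0.28, adjusted p = 0.778) overlapped. The value of Il1a-/- replicate 1, from 73 cells, was the highest for each of the 4 genes. Marker lists in this gate moved with the host too. The monocyte list summed to 6756 and 6616 CPM in WT and 8792 and 14928 CPM in Il1a-/- samples. The macrophage list summed to 3321 and 3001 against 1849 and 1929 CPM. The part of this shift in the Ly6 values was not tested. Ly6a and Ly6i passed without WT replicate 2 (2.54 and 3.43, adjusted p = 8.5e-06 and 1.79e-08), leaving 1 WT library in which both were low. Without Il1a-/- replicate 1 the differences were 0.43 for Ly6i, 0.40 for Ly6c2 and 0.90 for Ly6a, none of them called. In macrophages the members ranged more widely and 0% of 7271 genes passed (872, or 12%, at an unadjusted p under 0.05).

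In fibroblasts no gene at all passed (0% of 9775 by edgeR, with 467, or 4.78%, at an unadjusted p under 0.05 and 8 by DESeq2; 36.7% had groups without overlap). The members tested, Ly6c1 (0.08, SE 0.62), Ly6a (-0.34, SE 0.41) and Ly6e (-0.46, SE 0.43), had adjusted p of 0.988, 0.916 and 0.896. Their 95% intervals by a normal approximation, too narrow for 2 samples a group, were -1.13 to 1.30, -1.15 to 0.46 and -1.29 to 0.37. Even so, they leave room for a change of 1 log2 unit in at least 1 direction. The share of adventitial cells, in which Ly6c1 and Ly6a were higher, was 80.1 and 60.5% in WT and 86.7 and 63.6% in Il1a-/- tumours. In each host group replicate 1 had the higher share and the higher Ly6c1 level.

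Whether a member's host effect differed between the 4 main classes was tested against monocytes, and no member passed for T cells, pDC or fibroblasts (0.226%, 0.0723% and 0.253% of 11066 genes passed). The member with the smallest adjusted p was Ly6a in fibroblasts minus monocytes (-1.78, SE 0.63, adjusted p = 0.538), which passed only without WT replicate 2 (-3.19, adjusted p = 1.08e-06). The effect in pDC differed from that in monocytes by 0.34 for Ly6a (95% interval by a normal approximation -0.91 to 1.58) and by -0.09 for Ly6c2 (-1.17 to 0.98). The calls in pDC are not shown to differ from the values in monocytes.

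Genes with the pattern most like each member were ranked by Pearson's r of log2(CPM + 1) over 24 points, 6 classes in 4 libraries that share cells' sources and depth, so that r only describes likeness. Ly6c1 was nearest to Tcf7l1 (r = 0.975), Omd and Plce1, and Ly6d to Havcr1 (0.991), Foxr1 and Gm14964. Ly6c2 was nearest to Rasgrp2 (0.933), Rpl36al and Klf13, and Ly6e to H2-Oa (0.898), Selenot and Rap1a. Ly6i was nearest to Klra2 (0.905), Slc7a11 and Batf2. Ly6a had the least similar neighbours, Arhgef10 (0.842), Slco3a1 and Adam19.

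Of 36 other genes of the Ly6/uPAR family, 31 were in the files, 20 had a UMI and 8 had at least 100. The 5 most abundant were Plaur, the urokinase receptor (2042 UMIs), Cd59a, an inhibitor of complement lysis (1440), Ly6g5b (641), Lynx1, a modulator of nicotinic receptors (312), and Ly6k (271). Between hosts, 4 were tested in pDC and 1 passed in each direction, where 1.97% of all genes passed. Cd59a (chromosome 2, 104095801 to 104115354) fell from 320 and 395 CPM in WT to 23.5 and 18.7 CPM in Il1a-/- pDC, by 4.10 on the log2 scale (SE 0.32, adjusted p = 2.84e-06). It lies on the chromosome of Il1a (129299610 to 129309972), and the genetic background around the deleted allele was not tested. Plaur (chromosome 7, 24462484 to 24475968) rose from 143 and 96.9 CPM to 371 and 350.1 CPM, by 1.56 (SE 0.23, adjusted p = 0.00163). In monocytes Plaur was at 165 and 166 against 420.3 and 347 CPM (1.19, SE 0.25, adjusted p = 0.0714). Lynx1 (-0.50, adjusted p = 0.546) and Ly6k (0.34, adjusted p = 0.675) were not called in pDC. No gene of this list passed between hosts in monocytes, T cells or fibroblasts, where 1, 2 and 6 were tested. Of all genes, 0.371%, 3.08% and 0% passed in these classes.

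Because Ly6 genes respond to interferon, 33 interferon-stimulated genes in the files were read beside them. In pDC 2 of 10 tested were higher in Il1a-/- hosts and none lower, where 1.97% of all genes passed (median log2 difference 0.64, all genes -0.01), among them Ifi27l2a at 373 and 270 against 549 and 895 CPM (1.18, SE 0.24, adjusted p = 0.0151), while Irf1, an interferon-regulated transcription factor, missed (0.82, adjusted p = 0.0624). In NK cells 3 of 22 were higher and none lower (median 0.32), a share near the 11.6% of all genes called there, with Irf1 up by 0.85 (SE 0.16, adjusted p = 0.00709). In T cells 6 of 28 were higher and none lower (median 0.48, 3.08% of all genes called), in CD8 T cells 1 of 23 (median 0.42, 2.34% called) and in CD4 T cells 4 of 19 (median 0.41, 3.85% called), again with none lower. In monocytes all 24 had positive differences (median 0.71, all genes -0.01) and none passed, where 0.371% of all genes did. In fibroblasts 11 of 26 were positive (median -0.05) and none passed, where 0% of all genes did.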

How the data were processed

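Single-cell 3′ libraries (10x Genomics v3.1 chemistry, per the labels' protocols) were made from 4 tumours. The authors deposited raw UMI counts per gene and barcode, made with Cell Ranger 3.1.0 per the submitters' processing notes, with a combined human and mouse reference (GRCh38 and mm10 prefixes, per the file headers). How reads that match both near copies were counted is not given in the sources used here, and the hosts were FVB/NJ, not the reference strain.

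Barcodes with at least 500 UMIs, 250 genes and at most 20% mitochondrial UMIs were kept. Below 5000 UMIs they were tested against the free RNA (false discovery rate 0.001, 10000 simulations), and the top doublet scores (0.8% per 1000 cells) were removed. Classes were gated on markers without Ly6 genes. A cell needed 3 markers (4 for pDC, fibroblasts, neutrophils and tumour epithelium), T cells more T than NK markers, and cells in more than 1 gate were left out. Phagocytes with over 0.05% C1q UMIs were macrophages, and the others with 2 monocyte markers monocytes. UMI counts were summed per sample and class and tested with edgeR 4.0.16 in R 4.3.3 (quasi-likelihood, TMM scaling, its low-count filter, Benjamini-Hochberg over all genes tested, threshold 0.05). The standard error was the size of the log2 difference over the root of F. Intervals on log2 differences used this standard error with a normal approximation, so they can leave out 0 where the test does not reject. CPM are on TMM-scaled totals. Classes with under 20 cells in a sample have plain CPM and no test. DESeq2 1.42.0 was an alternative. Folds of classes at 0 use a floor of 3 counts, and the logarithm of a level a pseudocount of 1 CPM. The test was also run on simulated counts with known answers, drawn with the same spread for every gene of a class. The outcome is not reported here.

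The members and lists were chosen with earlier results of these data known. Every member is named, other family genes if called or among the 5 most abundant, interferon genes if among the 3 highest in a class (some values are not reported here), and like genes are the 3 with the highest r among genes over 20 CPM in a class. Cells are not replicates, and n is the number of tumours.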

Additional observations from a re-analysis of the deposited data

Results flagged for a closer look

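The host effect on Ly6a was compared between T cell subsets by an edgeR test of the difference itself. It was larger in CD8 than in CD4 cells by 2.33 on the log2 scale (adjusted p = 1.44e-09). The test was added after the data were seen, holds 2 tumours a group and borrows its spread from other genes. Its p-value therefore does not measure the spread of Ly6a between tumours alone.

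Signals outside the tested classes were higher in both Il1a-/- samples than in both WT samples, with no test because a sample had under 20 cells. They are shown because the groups did not overlap, as did 12.7% of genes with at least 3 UMIs in both Il1a-/- samples in the B and plasma cell gate, 29.2% in the phagocytes below and 32.7% in tumour epithelium. Ly6a in the B and plasma cell gate was at 227 and 234 CPM in WT and 819 and 268 CPM in Il1a-/- samples. In phagocytes that met neither the monocyte nor the macrophage gate it was at 19.98 and 105 against 626 and 109 CPM. In tumour epithelial cells Ly6a was at 3.58 and 382 against 1048 and 3802 CPM, the last from 8 UMIs of 1 cell, and Ly6e at 1000.5 and 1419 against 1809 and 2376 CPM, the last from 5 UMIs of the same cell.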

How the results depend on the processing

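Of 571 recomputed values, 512 kept their direction and side of the threshold (shares of cells: moved by less than the spread between samples), 18 gained and 25 lost a call, 3 shares moved and 13 log2 differences turned sign. In pDC 2 members were called; 1 was with 1 more gate marker, DESeq2, cells of at least 1000 UMIs, clusters in place of gates or gates read at 500 UMIs, and 0 to 2 with a sample left out. In T cells 0 became 1 and in monocytes 0 became 2 without the low-count filter, and 0 to 2 with a sample left out. With a sample left out, counts ran from 0 to 2 in CD8 T cells, 1 to 2 in CD4 T cells, 0 to 1 in other fibroblasts, 1 to 3 for monocytes against macrophages, 0 to 1 for class differences and 1 to 2 for CD8 minus CD4. The lone sample of a group was then assumed to vary like the other group.

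Replicate numbers were shared by the groups, but the labels, which name pairs of tumours collected on different days, do not say that the numbers mark them, and deviations of same-numbered samples correlated by 0.0234 in monocytes, 0.130 in T cells, 0.0749 in pDC and 0.395 in fibroblasts. With the replicate block, members called in CD4 T cells went from 1 to 2 (Ly6a 0.60, adjusted p = 0.0467), and no other member's call changed, while genes called went from 111 to 302 in pDC and from 324 to 515 in T cells. Without the sample in the model (no replicate block), CD8 against CD4 kept 1 of 2 calls and adventitial against other fibroblasts 0 of 2.

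Without thinning, the host differences in the share of monocytes with a UMI turned from 6.55 to -2.42 percentage points for Ly6c2 and from 9.31 to -8.93 for Ly6e. All sign changes in log2 differences came from leaving out a sample, where they ran from -1.39 to 1.38 (Ly6c2) and -0.80 to 0.16 (Ly6e) in CD8 T cells, and from -0.15 to 1.91 (Ly6c2) and -0.28 to 0.91 (Ly6a) in T cells. In fibroblasts they ran from -0.51 to 1.12 (Ly6c1, -0.48 without WT replicate 2), -0.72 to 0.21 (Ly6a) and -0.88 to 0.17 (Ly6e), and in monocytes from -0.029 to 0.49 (Ly6e). The Ly6i term of fibroblasts against other classes ran from -2.63 to 0.47. Against monocytes, effects ran from -1.55 to 1.51 (Ly6c2, T cells), -0.41 to 0.63 (Ly6a, pDC) and -0.36 to 0.23 (Ly6c2, pDC).

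Counts of all genes called ran from 57 to 1232 in T cells (324 as reported), 0 to 248 in monocytes (26), 0 to 302 in pDC (111) and 0 to 27 in fibroblasts (0). The cause was not tested. Without Il1a-/- replicate 1, which had the fewest UMIs, 0 genes were called in pDC and 50 in monocytes.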
